A study of Mus musculus with 6 samples.

Results

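The transcripts of 10 genes of the MHC class I pathway were examined in splenic NK cells deleted for Mettl3, which encodes the catalytic subunit of the enzyme that writes m6A on mRNA. The genes were chosen by symbol and comprised the class I heavy chains H2-K1, H2-D1, H2-T23, H2-Q4 and H2-Q7, the shared light chain B2m, the peptide loading genes Tap1, Tap2 and Tapbp, and the transactivator Nlrc5. All 10 were found among the 14490 genes of the table, each with counts in every sample. H2-K1 and H2-D1 are the classical class Ia genes, whereas H2-T23, H2-Q4 and H2-Q7 belong to the nonclassical class Ib genes.

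The study purified NK cells by FACS from the spleens of C57BL/6 mice aged between 6 and 10 weeks and sequenced their polyA RNA, with 3 samples per genotype. WT mice were Mettl3fl/fl, and cKO mice were Ncr1Cre-Mettl3fl/fl. Both genotypes therefore carried the floxed Mettl3 alleles, and no Cre is named in the WT genotype. Cre was expressed from the Ncr1 locus, which is active in NK cells and some other innate lymphocytes, and cKO mice kept a single unmodified Ncr1 allele. Whether each sample came from a separate mouse or from pooled mice was not given in the sources used here, so the p-values measure the spread between these samples, which may in part be technical. The comparison addressed which transcripts differ in NK cells without METTL3.

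MHC class I molecules display peptides from inside the cell on its surface. Peptides made by the proteasome enter the endoplasmic reticulum through the TAP transporter, tapasin tethers the empty heavy chain and B2m complex to that transporter, and the loaded complex then travels to the plasma membrane. NK cells express class I themselves and read it on other cells. They do so through Ly49 receptors, many of which bind classical molecules, and through CD94-NKG2 receptors, which bind the product of H2-T23. Transcription of class I genes is known to depend on an NF-kB element, an interferon-responsive IRF element and a downstream module at which NLRC5 acts together with RFX, CREB/ATF and NF-Y factors.

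These promoter elements are shown for H2-K1, which was lower in cKO samples, for H2-Q7, whose 2 groups overlapped, and for B2m, which was lower and lies on another chromosome. The sequences are from the RefSeq promoters of GRCm38.p6, run 5′ to 3′ on the strand of the gene and end next to the annotated start, or 1 base short of that in B2m. Capitals mark the matches, in order along each sequence the NF-kB and IRF elements (in the opposite order in B2m), TGACG and the CCAAT box, the last written as ATTGG where it lies on the other strand.
H2-K1 (chr17:34000348-34000547, minus strand): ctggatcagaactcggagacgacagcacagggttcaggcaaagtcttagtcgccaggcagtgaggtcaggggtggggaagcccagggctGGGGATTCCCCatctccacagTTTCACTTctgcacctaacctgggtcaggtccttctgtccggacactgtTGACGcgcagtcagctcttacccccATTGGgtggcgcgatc
H2-Q7 (chr17:35438955-35439154, plus strand): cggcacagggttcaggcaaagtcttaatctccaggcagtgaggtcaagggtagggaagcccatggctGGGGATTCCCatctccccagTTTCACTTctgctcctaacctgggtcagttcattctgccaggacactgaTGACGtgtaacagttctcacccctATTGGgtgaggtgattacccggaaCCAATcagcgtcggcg
B2m (chr2:122147487-122147685, plus strand): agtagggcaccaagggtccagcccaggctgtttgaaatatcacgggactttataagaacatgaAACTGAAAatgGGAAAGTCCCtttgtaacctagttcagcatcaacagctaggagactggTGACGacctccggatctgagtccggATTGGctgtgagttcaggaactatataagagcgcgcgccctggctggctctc

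The window from the NF-kB to the IRF element was compared among H2-K1, H2-D1, H2-Q4 and H2-Q7, in which both elements matched. For H2-T23, without an NF-kB match, the 30 bases around the IRF match nearest its RefSeq start are printed instead. They were not compared with the others. The capitals have the same meaning as above.
H2-K1 (chr17:34000429-34000458, minus strand): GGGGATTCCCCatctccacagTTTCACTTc
H2-D1 (chr17:35262923-35262952, plus strand): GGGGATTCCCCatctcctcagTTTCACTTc
H2-Q4 (chr17:35379443-35379472, plus strand): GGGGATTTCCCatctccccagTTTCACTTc
H2-Q7 (chr17:35439022-35439051, plus strand): GGGGATTCCCatctccccagTTTCACTTct
H2-T23 (chr17:36032764-36032793, minus strand): ctcaattctcaTTTCTGTTggacgcctagt

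The H2-K1 and H2-D1 stretches were identical at 29 of 30 bases, and those of H2-K1 and H2-Q4 at 28 of 30. H2-K1 and H2-Q7 were identical at 15 of 30 bases position by position, and at 28 of 30 aligned positions once a gap of 1 base was allowed, since the H2-Q7 stretch is 1 base shorter. H2-T23 had IRF matches at 124 to 117 and at 81 to 74 bases before its RefSeq start. It had no NF-kB match in the 250 bases searched. The 250 bases before the RefSeq start were searched on both strands in the 8 members with a RefSeq entry. Gene positions given below are from GENCODE, whose starts can differ. For H2-D1, H2-T23 and Tapbp, and only just for Tap1 and B2m, the RefSeq start lies inside the GENCODE gene. Their windows thus lie wholly or partly within it, as do the H2-D1 and H2-T23 stretches above. Matches of different motifs did not overlap, whereas the palindromic NF-kB element matched more than once at overlapping positions in H2-K1, H2-D1 and H2-Q4 and was counted once per gene. The NF-kB element matched in 5 of these 8, namely H2-K1, H2-D1, H2-Q4, H2-Q7 and B2m, against 3.9% of all 32851 promoters. The IRF element, AANNGAAA, matched in those genes and in H2-T23, 6 of 8, against 21.3% of promoters. TGACG matched in 6 of 8, the genes with an NF-kB match and Tap1, against 17.8%. CCAAT matched in 8 of 8, Tapbp included, against 33.8%. A match describes letters in the window, not binding. In the windows searched, the NF-kB match was present both in genes that were lower in cKO samples and in H2-Q7. None was found in the window of H2-T23, which was also lower. Whether these elements bear on the differences was not tested.

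Reads on the listed genes numbered 55965515 to 71464042 per sample. Mettl3 itself had a normalized count of 1251 ± 56.0 (SD, n = 3) in WT and 334 ± 61.9 in cKO, with no overlap between genotypes (log2 fold change −1.92, SE 0.0986, limma adjusted p = 2.32e-14). All 11 NK-cell markers were present, and 6 were lower in cKO, namely Ncr1, Klrb1c, Klrk1, Nkg7, Prf1 and Gzma. Ncr1, which carries the Cre insertion, stood at 22394 ± 286 in WT and 16918 ± 230 in cKO. Tbx21 was the 1 that was higher, at 21256 ± 316 in WT and 25013 ± 407 in cKO. Eomes, Gzmb, Itga2 and Klrd1 were not called. The summed normalized counts of the 11 were 815973 to 843208 in WT and 751763 to 792941 in cKO. Markers of other cells were found at lower sums, and no listed marker had a mean of 0. B-cell markers summed to 17740 to 18037 in WT and 17639 to 18683 in cKO, with 6 of 11 higher in cKO, among them Cd79a (means of 201 normalized counts in WT and 334 in cKO). T-cell markers summed to 13286 to 14500 in WT and 9076 to 9646 in cKO, with 2 of 7 lower, Cd28 and Cd3g. Cd28, with means of 11867 and 7910, made up most of these sums and of their difference, and without it they were 1794 to 1987 and 1395 to 1619, with Cd3e, Cd3d, Cd4, Cd5 and Cd8a not called. Myeloid markers summed to 11338 to 11908 in WT and 11560 to 12250 in cKO, with 4 of 7 higher and 1 lower, Lyz2. Erythroid markers summed to 811 to 870 and 684 to 832, with 0 of 5 called by limma. The part of these cells in the class I values was not tested.

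Of the members, 5 were lower in cKO NK cells and 0 were higher. B2m and H2-T23 fell by 18.3% and 18.5%, H2-Q4 by 13.8%, H2-K1 by 9.07% and H2-D1 by 7.52%. H2-Q7, Tap1, Tap2, Tapbp and Nlrc5 did not pass the test. A lower value in such bulk samples can mean fewer cells of a type or less RNA per cell, and these cannot be told apart. Values are normalized counts, which are the reads of a gene divided by a size factor of the sample, and they were compared as log2(normalized count + 1) with limma, two-sided, with p-values adjusted by Benjamini-Hochberg over the 14490 genes and a call at an adjusted p under 0.05.
Of the 10 members, 5 were called, against 36.6% of all genes, and 5 were called lower, against 18.8%. In 5 of 10 the genotypes did not overlap, against 45.7% of all genes. Calls and separated groups are thus frequent in the whole table. The median log2 fold change was −0.080 over the members and 0.0014 over all genes. When samples were scaled to equal totals instead, the median over all genes rose to 0.051, and 4 members were lower (H2-K1, H2-T23, H2-Q4 and B2m) and 1 higher (Tap2). All genes then split into 3487 higher and 2016 lower, against 2576 and 2731 with the authors' size factors.

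**Figure D1:**
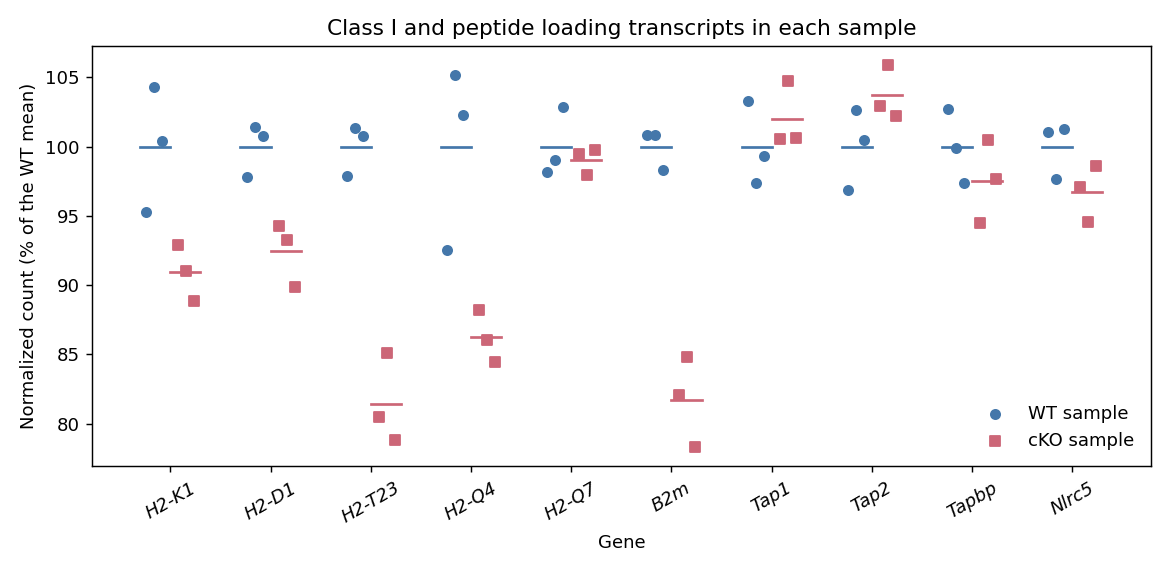
Normalized count of each of the 10 genes in each sample, as a percentage of the WT mean of that gene (vertical axis, which does not start at 0), with circles for the 3 WT samples, squares for the 3 cKO samples and a bar at each group mean. For H2-K1, H2-D1, H2-T23, H2-Q4 and B2m all cKO squares lie below all WT circles, and for the other genes the groups overlap.

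H2-K1 encodes the classical heavy chain K and lies on chromosome 17 of GRCm38 from 33996017 to 34000347. In WT samples 1, 2 and 3 its normalized counts were 495417, 542405 and 521832, as against 483133, 473132 and 461999 in cKO samples 1, 2 and 3. All cKO samples lay below the lowest WT sample, which was WT sample 1. Means were 519885 ± 23554 (SD, n = 3) for WT and 472754 ± 10572 for cKO, with a log2 fold change of −0.14 (SE 0.0346, 95% confidence interval −0.21 to −0.065, limma adjusted p = 0.00268).
H2-D1, the other classical heavy chain gene, lies on chromosome 17 from 35262730 to 35267499. It had 358038, 371078 and 368773 normalized counts for WT, as against 345062, 341297 and 328955 for cKO. The groups did not overlap, with a gap that was narrow beside the level of the gene. The means were 365963 ± 6959 (SD, n = 3) and 338438 ± 8426, and the log2 fold change was −0.11 (SE 0.0315, 95% confidence interval −0.18 to −0.048, limma adjusted p = 0.0057). With samples scaled to equal totals it was −0.063 and no longer called (limma adjusted p = 0.069).

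H2-T23 encodes Qa-1, the nonclassical molecule that presents leader peptides of other class I chains to CD94-NKG2 receptors. The gene lies on chromosome 17 from 36029773 to 36032855 and had 22351, 23144 and 23009 normalized counts among WT samples, compared with 18372, 19437 and 17992 among cKO samples. Every cKO sample was clearly below every WT sample. Means were 22835 ± 425 (SD, n = 3) for WT and 18601 ± 749 for cKO, a log2 fold change of −0.30 (SE 0.0326, 95% confidence interval −0.36 to −0.23, limma adjusted p = 5.07e-08).
H2-Q4, a gene of the neighbouring Q region, lies on chromosome 17 from 35379617 to 35385290. It had 84878, 96446 and 93826 normalized counts in the WT group and, in turn, 80900, 78946 and 77440 in the cKO group. The groups did not overlap, and WT sample 1 was the lowest of its group. The means were 91717 ± 6066 (SD, n = 3) and 79095 ± 1735, with a log2 fold change of −0.21 (SE 0.0363, 95% confidence interval −0.29 to −0.14, limma adjusted p = 3.92e-05). Of its exon bases, 19.1% overlap Gm11131 on the other strand, and whether strand was used in counting was not given in the sources used here.

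H2-Q7 is among the genes that encode Qa-2, a class Ib molecule of lymphocytes that is attached to the membrane by a lipid anchor. It lies on chromosome 17 from 35439155 to 35443773. Its normalized counts were 151660, 153000 and 158909 for WT, as against 153673, 151369 and 154114 for cKO. The groups overlapped, and the highest value belonged to WT sample 3. The means were 154523 ± 3857 (SD, n = 3) and 153052 ± 1474, and the log2 fold change of −0.014 (SE 0.0297, limma adjusted p = 0.766) had a 95% confidence interval of −0.075 to 0.048. The sign of this value turned with equal totals (0.036) and without WT sample 3 (0.0068).

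The heavy chain genes are close copies of each other, so reads may be shared between them. In a pairwise comparison of coding sequences, H2-K1 and H2-D1 were 91.5% identical, H2-Q4 and H2-Q7 were 90.8% identical, and H2-K1 and H2-T23 were 83.4% identical. Windows of 150 bases of the transcripts were searched in those of all other genes. None of the windows of H2-K1, H2-Q4 and B2m recurred in another gene, whereas 1.79% of H2-D1 windows recurred in H2-Q1, 0.831% of H2-T23 windows in Gm7030, and 11.6% of H2-Q7 windows in H2-Q6 or H2-Q5. Of these genes H2-Q7 had the highest share of recurring windows. H2-Q6, 95.4% identical in coding sequence, had 216098, 220597 and 228168 normalized counts for WT, as against 206757, 202756 and 206457 for cKO. These groups did not overlap, and the log2 fold change was −0.11 (SE 0.0304, limma adjusted p = 0.00546), a call that was lost with equal totals (−0.060, limma adjusted p = 0.0961). H2-Q8 and H2-Q9, also of the Q region, were not in the table, so their levels could not be read.

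B2m encodes beta-2 microglobulin, the light chain that all class I heavy chains above need to fold and to reach the surface. Unlike them it lies on chromosome 2, from 122147686 to 122153083. It had 183536, 183607 and 178944 normalized counts among WT samples, compared with 149352, 154325 and 142522 among cKO samples. All cKO samples lay far below the lowest WT sample. Means were 182029 ± 2672 (SD, n = 3) for WT and 148733 ± 5926 for cKO, a log2 fold change of −0.29 (SE 0.0317, 95% confidence interval −0.36 to −0.23, limma adjusted p = 4.17e-08). B2m and H2-T23 had similar fold changes, and the intervals of both lay below the estimates of H2-K1 and H2-D1.

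Tap1 and Tap2 encode the subunits of the peptide transporter and lie close together on chromosome 17, from 34187553 to 34197225 and from 34203527 to 34216321. Tap1 had 12387, 11674 and 11910 normalized counts in the WT group and, in turn, 12058, 12562 and 12066 in the cKO group. The groups overlapped, with means of 11991 ± 363 (SD, n = 3) and 12229 ± 289. The log2 fold change of Tap1 was 0.029 (SE 0.0335, 95% confidence interval −0.040 to 0.097, limma adjusted p = 0.55).
Tap2 had 6892, 7306 and 7148 normalized counts for WT, as against 7326, 7534 and 7275 for cKO. The groups overlapped by a narrow margin, since the lowest cKO sample was just below the highest WT sample. The means were 7115 ± 209 (SD, n = 3) and 7378 ± 138, and the log2 fold change was 0.053 (SE 0.0357, 95% confidence interval −0.021 to 0.13, limma adjusted p = 0.27). With equal totals it was 0.10 and called higher (limma adjusted p = 0.0206). Of the exon bases of Tap2, 18.5% overlap genes on the other strand, and of those of Tap1, 3.87%.

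Tapbp encodes tapasin, which holds the heavy chain at the transporter until a peptide is bound, and lies on chromosome 17 from 33915899 to 33929292. It had 10840, 10549 and 10280 normalized counts among WT samples, compared with 9976, 10608 and 10308 among cKO samples. The groups overlapped over most of their range. The means were 10556 ± 280 (SD, n = 3) and 10297 ± 316, with a log2 fold change of −0.036 (SE 0.0344, 95% confidence interval −0.11 to 0.035, limma adjusted p = 0.452). Its sign turned with equal totals (0.014), and 29.0% of its exon bases overlap Zbtb22 or Gm19412.

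Nlrc5 encodes the transactivator that drives class I, B2m and Tap1 transcription, and lies on chromosome 8 from 94434356 to 94527272. It had 14553, 14061 and 14578 normalized counts in the WT group and, in turn, 13973, 13616 and 14196 in the cKO group. The groups overlapped, since the highest cKO sample exceeded the lowest WT sample. The means were 14397 ± 292 (SD, n = 3) and 13928 ± 293, and the log2 fold change was −0.048 (SE 0.0319, 95% confidence interval −0.11 to 0.018, limma adjusted p = 0.261), which became 0.0018 with equal totals.
For these 5 members without a call, the intervals bound the difference, and they do not show that the genotypes were equal. The exact two-sided permutation test over the 20 assignments of the samples gave p = 0.1, the smallest it can give, for each of the 5 called members, and 0.2 to 0.8 for the others.

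**Figure D2:**
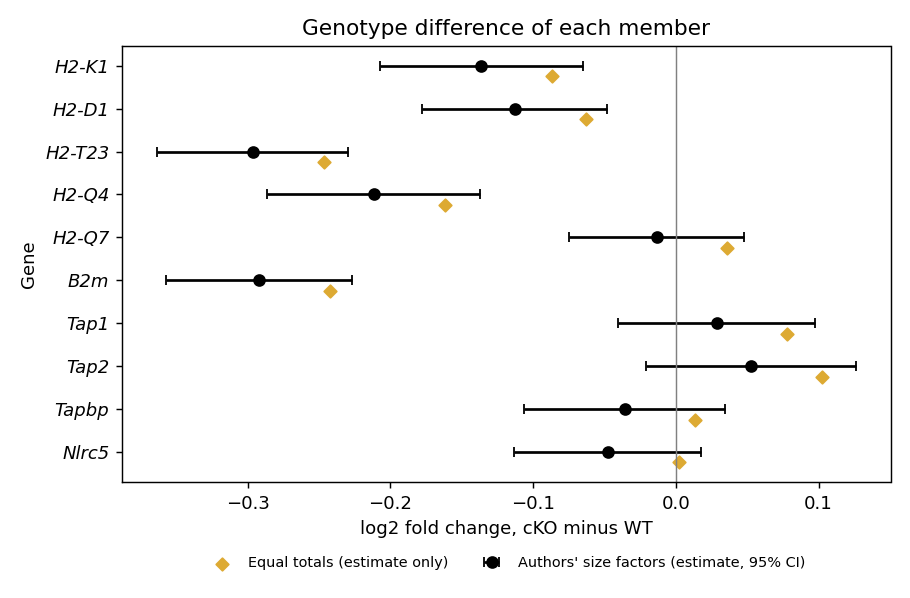
Log2 fold change of each of the 10 genes, cKO minus WT (horizontal axis), with circles and bars for the limma estimate and its 95% confidence interval on the authors' size factors, and diamonds for the estimate after scaling to equal totals. H2-T23 and B2m lie farthest to the left at −0.30 and −0.29, the intervals of H2-K1, H2-D1, H2-T23, H2-Q4 and B2m lie below 0, and H2-Q7, Tapbp and Nlrc5 change sign with equal totals.

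The amount of light chain relative to heavy chain transcript was then read within each sample, where the size factor cancels. These ratios are given as descriptions, with no test. B2m reads per H2-K1 read were 0.370, 0.339 and 0.343 in WT samples and 0.309, 0.326 and 0.308 in cKO samples, a mean ratio 10.3% lower in cKO and with no overlap. B2m per H2-D1 was 0.498 ± 0.0139 (SD, n = 3) in WT and 0.439 ± 0.0110 in cKO, 11.7% lower and again without overlap. The ratio of B2m to the summed counts of the 5 heavy chains went from 0.158 ± 0.00632 to 0.140 ± 0.00435, which is 11.2% lower. The summed ratio is set mostly by H2-K1 and H2-D1, and the single heavy chains differed. B2m over H2-Q7 was 17.5% lower in cKO samples without overlap, at 1.18 ± 0.0459 (SD, n = 3) and 0.972 ± 0.0474. B2m over H2-T23, at 8.21, 7.93 and 7.78 for WT and 8.13, 7.94 and 7.92 for cKO, overlapped between genotypes. B2m over H2-Q4, at 1.99 ± 0.148 and 1.88 ± 0.0645, overlapped as well.
Relative to the loading genes, the B2m to Tap1 ratio was 14.8, 15.7 and 15.0 in WT samples and 12.4, 12.3 and 11.8 in cKO samples, 19.9% lower with no overlap. The B2m to Nlrc5 ratio was 12.6 ± 0.393 (SD, n = 3) and 10.7 ± 0.648, also without overlap. The H2-K1 to Tap1 ratio, 43.4 ± 3.25 and 38.7 ± 1.25, overlapped between genotypes, as did that of H2-K1 to Nlrc5, 36.1 ± 2.29 and 34.0 ± 1.23.
Among the heavy chains, the classical pair kept near its ratio, with H2-K1 over H2-D1 at 1.42 ± 0.0392 (SD, n = 3) in WT and 1.40 ± 0.00949 in cKO and overlapping groups. H2-T23 over H2-K1 was 0.0440 ± 0.00123 and 0.0394 ± 0.00157, 10.5% lower in cKO without overlap. H2-T23 over H2-Q7 was 17.8% lower and H2-Q4 over H2-Q7 12.9% lower, both without overlap. The Tap1 to Tap2 ratio was 1.69 ± 0.101 and 1.66 ± 0.0107, and its groups overlapped.

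**Figure D3:**
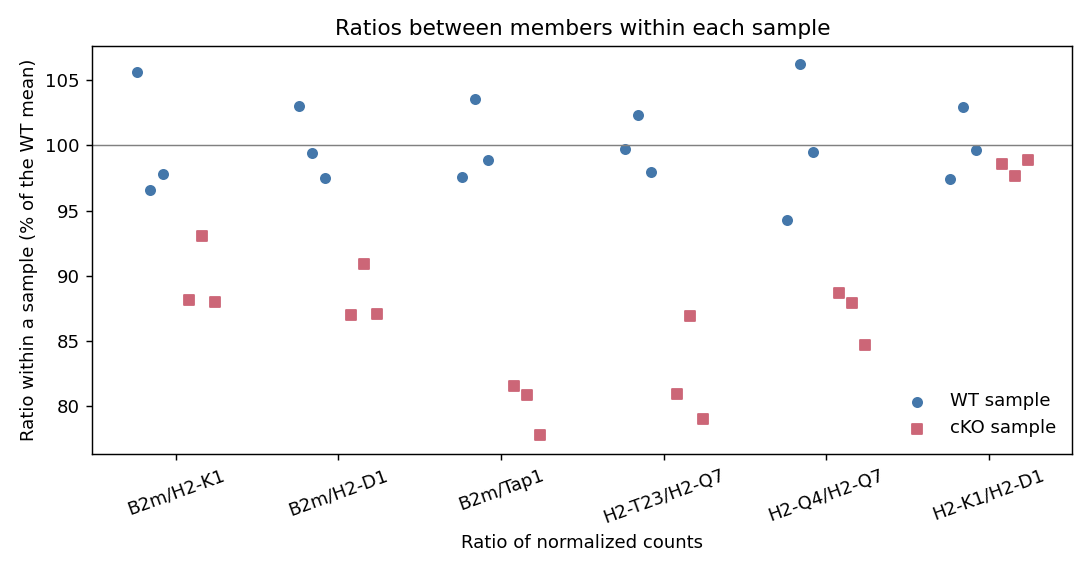
Ratio of the normalized counts of a pair of genes within each sample, as a percentage of the WT mean ratio (vertical axis, which does not start at 0), with circles for WT samples, squares for cKO samples and a line at 100%. The cKO squares lie below all WT circles for B2m over H2-K1, H2-D1 or Tap1 and for H2-T23 or H2-Q4 over H2-Q7, and the groups overlap for H2-K1 over H2-D1.

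Levels of different genes were compared as normalized counts per kilobase of the longest coding transcript. In WT samples these levels were 321115 ± 14549 (SD, n = 3) for H2-K1, 211662 ± 3107 for B2m and 174102 ± 3311 for H2-D1, so the classical chains and the light chain stood at the top. H2-Q7 followed with 103222 ± 2577, H2-Q4 with 51153 ± 3383 and H2-T23 with 15513 ± 288. The loading genes and the transactivator were far lower, with levels per kilobase of 4060 ± 123 for Tap1, 3643 ± 96.7 for Tapbp, 2067 ± 60.7 for Tap2 and 1900 ± 38.5 for Nlrc5. The order was the same in cKO samples, from 292004 ± 6530 for H2-K1 and 172945 ± 6891 for B2m down to 1838 ± 38.7 for Nlrc5, and no neighbours in it overlapped between samples of a genotype. It depends on the length used. Per kilobase of all annotated exons, B2m at 211662 ± 3107 in WT exceeded H2-K1 at 176952 ± 8017, Tapbp exceeded Tap1, and H2-Q7 (36231 ± 904) and H2-Q4 (35330 ± 2337) did not differ beyond their spread.
The 10 genes together took 2.01%, 2.12% and 2.10% of the normalized counts of WT samples and 1.99%, 1.94% and 1.93% of those of cKO samples. Every cKO share was below every WT share.

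The other genes of the pathway were read from 7 lists, of which 83 genes were in the table. Of these, 13 were higher in cKO samples and 28 lower at an adjusted p under 0.05 (limma), against 17.8% higher and 18.8% lower among all genes. With equal totals the split was 19 higher and 25 lower. In both settings 10 of the lower genes came from the list of NK-cell receptors. That list holds Lilrb4a and Klrb1b, described below as not binding class I. The p-values in the following paragraphs are limma's, adjusted over all genes.

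Other class I genes of mice, including the remaining Q, T and M genes and class I-like genes such as Cd1d1 and Mr1, counted 16 of 25 in the table, of which 1 was higher, 4 were lower and 11 were not called, with a median log2 fold change of −0.062. H2-K2, annotated as a transcribed pseudogene near H2-K1, had 19004, 20705 and 19871 normalized counts for WT, as against 16029, 15443 and 15713 for cKO. The groups were well apart (log2 fold change −0.34, SE 0.0334, adjusted p = 8.89e-09). H2-Q10 fell by 0.33 on the log2 scale (adjusted p = 0.00432) although its groups overlapped, and H2-M3, which presents formylated peptides, fell by 0.21 (adjusted p = 0.000239). H2-T24 was the gene of the list that rose, with 576 ± 78.1 (SD, n = 3) normalized counts in WT and 738 ± 83.0 in cKO (log2 fold change 0.36, adjusted p = 0.00426). H2-Q5 and H2-T22 were not called, with log2 fold changes of −0.073 and −0.037, the latter 0.013 with equal totals.

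Peptide loading chaperones and trimming enzymes, 11 of 11 in the table, showed 4 genes higher, 2 lower and 5 not called, with a median log2 fold change of 0.053. Erap1, the aminopeptidase that trims peptides in the endoplasmic reticulum, had 2869, 2753 and 2603 normalized counts among WT samples, compared with 3240, 3203 and 3265 among cKO samples. All cKO samples were higher (log2 fold change 0.24, SE 0.0452, adjusted p = 0.000125). Uggt1, which checks glycoprotein folding, the glucosidase subunit Ganab and Pdia3, a disulfide isomerase of the loading complex, rose by 0.12, 0.11 and 0.11 on the log2 scale. The chaperones Calr and Hspa5 fell by 0.12 (adjusted p = 0.0021) and 0.088 (adjusted p = 0.0229), of which the Hspa5 call was lost with equal totals. Canx, the chaperone of newly made heavy chains, had a log2 fold change of 0.053 (adjusted p = 0.217) and was called higher with equal totals (0.10, adjusted p = 0.00953). With equal totals this list counted 6 higher and 1 lower.

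Peptide supply by the immunoproteasome and its activator, 7 of 7 in the table, showed 0 genes higher, 2 lower and 5 not called, with a median of −0.088. The 2 were Psmb10, an inducible catalytic subunit, at 7023 ± 44.2 (SD, n = 3) normalized counts in WT and 6243 ± 248 in cKO (log2 fold change −0.17, adjusted p = 0.000572), and the activator subunit Psme1 (log2 fold change −0.14, adjusted p = 0.00277). The other inducible catalytic subunits were not called, Psmb8 at a log2 fold change of 0.0088 (adjusted p = 0.895) and Psmb9 at −0.095 (adjusted p = 0.0537). With equal totals 1 gene of this list was higher, Psme3, and 2 were lower.

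Regulators of class I transcription, 18 of 18 in the table, showed 3 genes higher, 4 lower and 11 not called, with a median of 0.017. Rela, the p65 subunit of NF-kB, had 28848, 27150 and 28873 normalized counts in the WT group and, in turn, 20902, 20966 and 21180 in the cKO group. This separation was wide (log2 fold change −0.43, SE 0.0312, adjusted p = 2.57e-11). Of the RFX subunits, Rfxap rose by 0.33 on the log2 scale (adjusted p = 9.43e-06) and Rfxank fell by 0.25 (adjusted p = 0.00838). The subunit Rfx5 was not called, with a log2 fold change of −0.0033 (adjusted p = 0.969). Creb1 and Stat2 rose by 0.21 (adjusted p = 2.35e-05) and 0.12 (adjusted p = 0.0451), the latter with overlapping groups. Irf9 and Irf8 fell by 0.15 (adjusted p = 0.00582) and 0.14 (adjusted p = 0.000489), and the Irf9 call was lost with equal totals. Irf1 and Nfkb1, at log2 fold changes of 0.036 and 0.042, were not called, and both were called higher with equal totals, where the list counted 6 higher and 3 lower.

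Interferon and receptor genes, 9 of 9 in the table, showed 4 higher, 3 lower and 2 not called, with a median of 0.12. Ifngr1 and Ifnar1, receptor chains for interferon gamma and type I interferon, fell by 0.31 (adjusted p = 2.37e-09) and 0.40 (adjusted p = 7.4e-10) on the log2 scale, and the kinase Tyk2 by 0.20 (adjusted p = 6.6e-06). Ifng itself, at 48707 ± 2106 (SD, n = 3) normalized counts in WT and 54470 ± 1927 in cKO, rose by 0.16 (adjusted p = 0.00035). Socs1, an inhibitor of interferon signalling, had 3279, 3265 and 3444 normalized counts for WT, as against 4784, 4817 and 4815 for cKO. It rose by 0.53 (SE 0.0400, adjusted p = 4.94e-11), and the kinases Jak2 and Jak1 rose by 0.13 (adjusted p = 0.00288) and 0.12 (adjusted p = 0.00136).

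The list of class I receptors of NK cells had 14 of 15 genes in the table, with 0 higher, 10 lower and 4 not called, and a median of −0.33. It holds Lilrb4a and Klrb1b, which are known to bind an integrin and the lectin Clr-b rather than class I. Without these 2, left out after their values were seen, 8 of 12 were lower and the median was −0.27. The genes that remain, among them the activating Klra8 (Ly49H), were not each checked for binding of class I. Klrc1, the inhibitory NKG2A chain of the receptor for the H2-T23 product, had 17772, 18543 and 17759 normalized counts among WT samples, compared with 14162, 14848 and 14504 among cKO samples. All cKO samples were lower (log2 fold change −0.31, SE 0.0320, adjusted p = 1.39e-08). Klrd1 (CD94, log2 fold change −0.025), the chain it pairs with, and Klrc2 (NKG2C, −0.030), an activating chain that also pairs with CD94, were not called and changed sign with equal totals. Among Ly49 genes, Klra9 fell by 0.68 (adjusted p = 3.42e-14), Klra8 by 0.49 (adjusted p = 2.24e-12) and Klra4 by 0.42 (adjusted p = 6.46e-11), while Klra7 had a log2 fold change of −0.086 (adjusted p = 0.0527). Ly49 genes are close paralogs whose reads may be split among them. Lilrb4a fell by 0.71 (adjusted p = 2.45e-16) and Klrb1b by 0.56 (adjusted p = 1.75e-13).

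Class I turnover and trafficking genes, 8 of 10 in the table, showed 1 higher, 3 lower and 4 not called, with a median of −0.050. Bcap31, an export receptor of the endoplasmic reticulum that binds class I, and its relative Bcap29 fell by 0.30 (adjusted p = 2.52e-07) and 0.26 (adjusted p = 0.00487) on the log2 scale. Derl1, which takes part in the removal of misfolded heavy chains, fell by 0.14 (adjusted p = 0.00181). Rab27a, a GTPase of granule release, rose by 0.35 (adjusted p = 2.64e-08), from 5587 ± 160 (SD, n = 3) to 7138 ± 219 normalized counts.

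**Figure D4:**
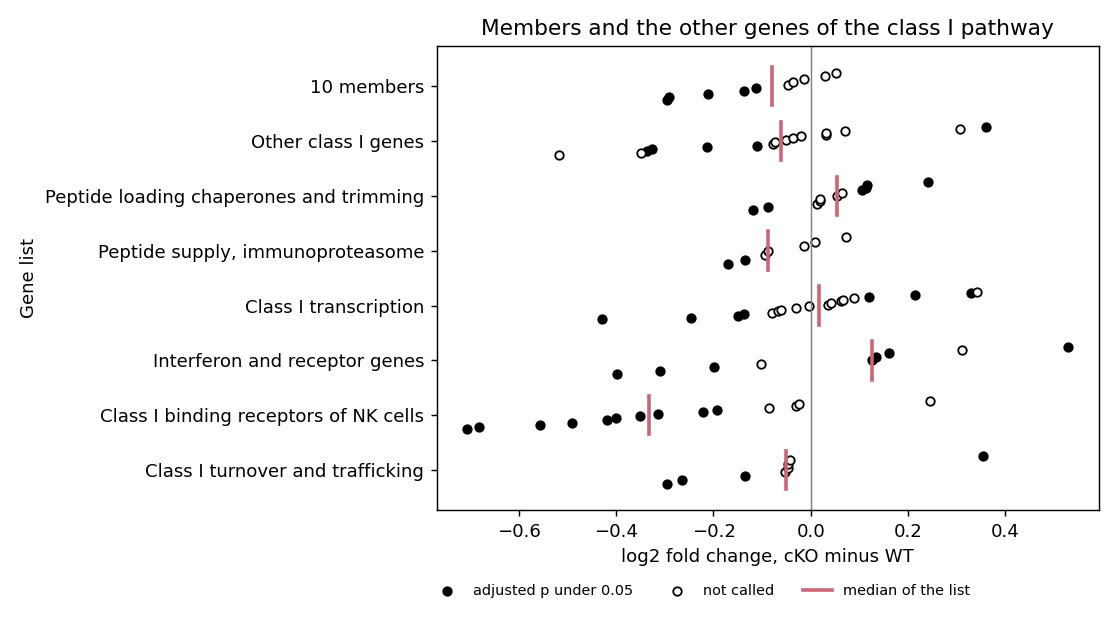
Log2 fold change, cKO minus WT (horizontal axis), of the 10 genes and of the listed genes of 7 related lists (rows), with filled points at a limma adjusted p under 0.05, open points for genes not called and a vertical bar at each median. The list of receptors of NK cells has the lowest median, −0.33 (−0.27 without Lilrb4a and Klrb1b, which do not bind class I), and the interferon and receptor genes the highest, 0.12, while the 10 genes have a median of −0.080.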

How the data were processed

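The data were mRNA-seq of spleen NK cells, 3 samples per genotype, grouped by the genotype in the labels. The submitters' processing notes name HISAT2 2.0.5, featureCounts 1.5.0-p3, DESeq2 1.16.1 and GRCm38 for what the authors did, while the study's methods give other versions of HISAT2 and DESeq2 for the authors' analysis. Each sample column, as the authors deposited it, is a signal, namely reads per gene over the DESeq2 size factor of that sample. The deposited table also holds the authors' mean over samples as a signal, their log2 fold change and its error, their Wald statistic as a score, and their p-value and adjusted p-value. These comparison columns were not used.

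In every sample 100% of the values were whole multiples of one step, within 0.001 reads, from which the reads on listed genes were computed. A stricter preset check, which starts from the smallest value of a column, accepted whole reads in a single sample column, so no count test was run on them. The depth of whole libraries was not used here. After addition of 1, values were log2-transformed. The filter asked for a value of 1 or more in 3 or more samples, which all 14490 genes passed, and genotypes were compared with limma 3.58.1 in R 4.3.3 with a variance trend and no covariate. Steps were tested on simulated data. The members and all gene and marker lists were chosen with earlier results of these data known. Named were the members, Mettl3, from each list up to 3 genes each with the largest rise and fall among those called with a mean of at least 100, and list genes with a mean of at least 10000. Rfx5, Psmb8, Psmb9 and Psme3 were named outside this rule, after their values were seen. Markers named as examples were chosen after their values were seen. Positions, transcript lengths, exon overlaps and shared windows were computed from the GENCODE vM21 annotation of GRCm38, in which 97.34% of gene names matched. Promoters came from the RefSeq table of GRCm38.p6, which was searched with Python 3.11.15 and Biopython 1.88. The alternatives comprised limma-voom, a replicate block, each sample left out in turn, equal totals as the scaling, 0.1 as the pseudocount, and the filter either dropped or set at 1 CPM in 3 or more samples. The pairing check is given with the alternatives.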

Additional observations from a re-analysis of the deposited data

How the results depend on the processing

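Over the 12 alternatives run, 5 members were called each time, and the count of called pathway genes was 38 to 46 against 41. The calls of H2-K1, H2-T23, H2-Q4 and B2m were kept throughout, with log2 fold changes of −0.17 to −0.087 (limma adjusted p = 9.35e-05 to 0.0303), −0.33 to −0.25, −0.27 to −0.16 and −0.32 to −0.24. Of all genes, 5261 to 5543 were called with all samples and 4417 to 4922 with a sample left out, against 5307. Scaling to equal totals ended the call of H2-D1 (−0.063, limma adjusted p = 0.069; −0.13 to −0.063 over all alternatives, limma adjusted p = 0.000321 to 0.069) and brought a call of Tap2 (0.10, limma adjusted p = 0.0206; 0.030 to 0.10 over all alternatives). It also turned the sign of H2-Q7 (0.036), Tapbp (0.014) and Nlrc5 (0.0018), and H2-Q7 turned to 0.0068 without WT sample 3. By its construction this setting shifts all genes together, and the median of all genes went from 0.0014 to 0.051 on the log2 scale. With samples left out in turn, H2-K1 ranged from −0.17 to −0.11, H2-Q7 from −0.027 to 0.0068 and H2-D1 from −0.13 to −0.093.

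Same-numbered WT and cKO samples had correlations of their deviations from the group means of −0.040, 0.056 and 0.038. Differently numbered samples had −0.067 to 0.035, so 0.056 and 0.038 lay above all of these. All were small, and they do not settle whether samples were paired. The main fit took no pairing. With the replicate block, 5 members, 46 pathway genes and 5543 genes in all were called. Count tests on recovered reads were planned on condition that reads could be recovered by the procedure set for it, and were not run. With 3 samples per genotype the spread of a single gene is poorly known. Reads shared between class I copies may affect H2-Q7, and their effect was not measured.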
